A study of Mus musculus with 27 samples.

Results

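The genes described here act in the uptake, activation and mitochondrial oxidation of fatty acids, together with the peroxisome proliferator-activated receptors (PPARs), the estrogen-related receptors and their coactivators. The set was a list of 42 gene symbols, chosen by function with earlier results of these data known. All 42 were found among the 22367 protein-coding genes of the GENCODE vM1 annotation of mouse assembly NCBIM37 (mm9). Each gene was given every H3K4-methylated region of the heart that lay in its body or within 5 kb of any of its transcription start sites (TSS). This gave 613 distinct regions covering 785 kb, of 358833 regions in all.

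The regions came from chromatin immunoprecipitation and sequencing (ChIP-Seq) of H3K4me1, H3K4me2 and H3K4me3 in C57BL/6 mouse hearts at embryonic day E11.5. Controls were *Tnnt2::Cre; Kmt2d fl/+; mTmG/+* and mutants *Tnnt2::Cre; Kmt2d fl/fl; mTmG/+*. Both genotypes therefore carried the Cre transgene, the mTmG reporter and at least 1 floxed *Kmt2d* allele, so that the controls lose a copy of *Kmt2d* wherever Cre is active. Cre was driven by the *Tnnt2* promoter, which is active in heart muscle cells, and the other cells of the heart kept *Kmt2d*. Each genotype had 3 pools of 30 hearts, from which 1 input and 3 immunoprecipitated libraries were made, giving 24 of the 27 libraries. The other 3, KMT2D ChIP-Exo libraries from cardiomyocytes, were not analysed here.

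The authors merged the regions of all 3 marks into 1 list, and deposited a list of regions called lower in H3K4me1, with 2730 entries, and another for H3K4me2, with 6699 entries, in mutant than in control hearts. These are the decreased lists below. The deposited H3K4me2 list is longer than the total given in the study's text, the reason is not known, and every H3K4me2 share below rests on the deposited list. The lists give positions only. There was no read count, fold change or value per pool, so the size of a decrease, its spread between pools and the depth behind it are unknown, and absence from a list does not show that a region kept its level. No test could be made, and whether fewer cells lost a mark or each cell lost some of it cannot be told apart in whole hearts. Nor could the deletion of *Kmt2d* be checked from these lists. The labelled tissue was checked by region positions. A TSS of each of 13 heart muscle genes lay in a region of 4540 to 48800 bp, and a TSS lay in a region of any width for 5 of 5 endothelial, 3 of 3 epicardial and 4 of 4 red blood cell genes, against 2 of 5 adipocyte and 2 of 4 hepatocyte genes. The share was 70.4% over all coding genes, so these small counts say little alone. Widths overlapped those of heart muscle genes, at 3880 to 15820 bp (endothelial), 7360 to 12160 bp (epicardial) and 4140 to 11460 bp (red blood cell).

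As background, long-chain fatty acids enter the cell through transporters, are bound by small carrier proteins, and are activated to acyl-CoA. The carnitine shuttle carries them into mitochondria, where each round of beta-oxidation shortens the chain and passes electrons to the respiratory chain. PPARs, with PGC-1 coactivators and estrogen-related receptors, switch these genes on, and the heart turns from glucose to fatty acids as its main fuel around birth. KMT2D is a methyltransferase that places mono- and dimethylation on H3K4, at enhancers and around promoters.

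Promoter sequences of 5 members are shown because they hold the contrasts that recur below. *Hadha* and *Hadhb* have a shared promoter. *Cpt1a* and *Ucp2* had their TSS in a decreased H3K4me2 region, whereas their relatives *Cpt1b* and *Ucp3* did not. Each runs 5′ to 3′ on the gene's own strand, from 250 bases before to 50 bases from the TSS onwards, and was read from NCBIM37. Capitals mark CpG dinucleotides, where a C is followed by a G.
Hadha, chr5:30481653-30481952, minus strand: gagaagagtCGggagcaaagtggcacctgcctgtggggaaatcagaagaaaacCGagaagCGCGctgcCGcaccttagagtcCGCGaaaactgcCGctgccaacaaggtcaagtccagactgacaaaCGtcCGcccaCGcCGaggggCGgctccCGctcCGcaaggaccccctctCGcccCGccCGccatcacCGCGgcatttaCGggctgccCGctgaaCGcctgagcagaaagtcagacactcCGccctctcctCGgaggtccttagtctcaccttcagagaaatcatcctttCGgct
Cpt1a, chr19:3323051-3323350, plus strand: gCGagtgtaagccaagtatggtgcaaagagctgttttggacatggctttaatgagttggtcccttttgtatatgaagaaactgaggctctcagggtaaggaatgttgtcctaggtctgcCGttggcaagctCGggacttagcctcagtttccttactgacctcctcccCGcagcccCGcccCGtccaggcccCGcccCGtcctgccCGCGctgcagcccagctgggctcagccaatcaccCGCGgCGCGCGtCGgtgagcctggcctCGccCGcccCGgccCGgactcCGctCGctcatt
Cpt1b, chr15:89256245-89256544, minus strand: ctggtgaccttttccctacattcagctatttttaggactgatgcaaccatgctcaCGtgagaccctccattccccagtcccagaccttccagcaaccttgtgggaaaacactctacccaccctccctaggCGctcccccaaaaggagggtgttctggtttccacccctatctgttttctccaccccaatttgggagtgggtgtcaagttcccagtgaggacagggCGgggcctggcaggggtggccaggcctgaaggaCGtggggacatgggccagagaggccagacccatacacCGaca
Ucp2, chr7:107641596-107641895, plus strand: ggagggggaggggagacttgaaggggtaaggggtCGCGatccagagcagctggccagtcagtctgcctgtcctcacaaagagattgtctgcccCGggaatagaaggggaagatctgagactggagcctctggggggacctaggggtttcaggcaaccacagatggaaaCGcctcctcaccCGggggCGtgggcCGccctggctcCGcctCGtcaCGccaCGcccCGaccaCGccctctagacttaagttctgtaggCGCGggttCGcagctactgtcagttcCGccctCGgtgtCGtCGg
Ucp3, chr7:107621250-107621549, plus strand: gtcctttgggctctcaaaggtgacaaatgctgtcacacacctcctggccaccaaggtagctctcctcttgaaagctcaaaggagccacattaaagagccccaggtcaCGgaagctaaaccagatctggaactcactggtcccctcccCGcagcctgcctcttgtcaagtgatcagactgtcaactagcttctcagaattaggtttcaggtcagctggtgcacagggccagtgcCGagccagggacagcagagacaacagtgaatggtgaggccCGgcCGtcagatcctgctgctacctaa

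The *Hadha* window held 26 CpGs, and it also contains the TSS of *Hadhb* on the other strand. The *Cpt1a* window held 22 CpGs and that of *Ucp2* 20. The windows of *Cpt1b* and *Ucp3* held 5 each.

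To determine where the set carried H3K4 methylation, TSS positions were compared with the merged regions. A TSS lay inside a region for 41 of the 42 members (97.6%), against 70.4% of all coding genes. The exception was *Fabp4*, the fatty acid binding protein of adipocytes, whose TSS was 371 bp from the nearest region. The region over a TSS had a median width of 4220 bp in the members and 3720 bp in all coding genes with one. The members' widths ranged from 1840 bp, at *Acadvl* and *Pparg*, to 17260 bp at *Ucp3*. *Esrrg* had the next widest region, of 15360 bp, and *Cpt1b* followed with 9020 bp.

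**Figure D1:**
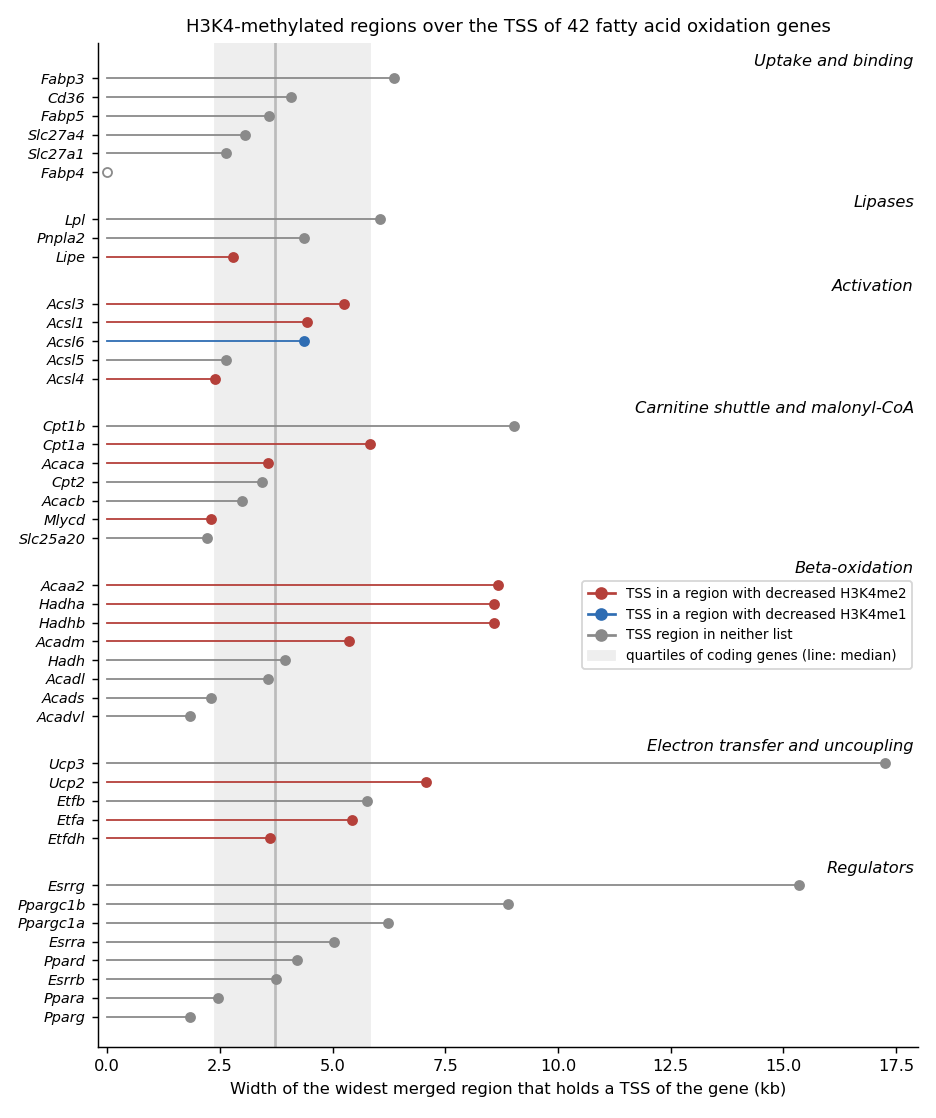
Width in kb of the widest merged region that holds a TSS of each of the 42 members, grouped by role, with colours for the decreased lists; the grey band spans the quartiles of coding genes and its line is their median. Red points, with a TSS in decreased H3K4me2 (29.2% of coding genes), occur in 5 of the 7 roles. They are missing from uptake and binding and from regulators. The 3 widest regions, of *Ucp3*, *Esrrg* and *Cpt1b*, are grey. For *Acsl1* the decreased region, of 3440 bp, is not the widest one.

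The median number of regions was 6.5 per member and 5 per coding gene, and the median summed width was 11020 bp against 6520 bp. The 8 regulators had a median of 25 regions. The other 34 members had a median of 5, as coding genes did, and a median summed width of 9740 bp. *Pnpla2* had the fewest, with 2 regions, and *Esrrg* the most, with 169 regions summing to 196120 bp. The smallest summed width was 3400 bp, at *Slc27a4*. Gene length moved with these counts, with a median of 28179 bp in the members and 18272 bp in coding genes that have a region. Around the TSS of the transcript with the longest coding sequence, the region reached further into the gene than away from it in 33 of 38 members (86.8%) and in 73.5% of coding genes.

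To ask how often the regions of these genes were called lower in mutant hearts, each decreased list was matched to the merged regions. H3K4me2 was decreased in a region of 15 of 42 members (35.7%), against 28.7% of the coding genes that have a region. By TSS, 14 of 41 members (34.1%) had one inside a decreased H3K4me2 region, against 29.2% of coding genes. Of the members' regions, 14 of 613 (2.28%) were in this list, against 1.87% of all regions. Wider regions were called more often in the whole series. In other coding genes of like width, which means the same class out of 10 by summed region width or by TSS region width, the shares were 37.2% for any region and 32.4% for the TSS. 1 gene of the 42 is worth 2.38 percentage points. The shares of the members thus lay near those of genes of like width, and a share near its background is not a result about the members.

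H3K4me1 was decreased in a region of 6 members (14.3%), against 7.08% of coding genes and 10% of genes of like width. Without the gene bodies, counting windows around TSS alone, the 6 became 1. It was decreased over a TSS of 1 of 41 members (2.44%), against 1.29% of coding genes and 1.20% of those of like TSS region width. Of the members' regions, 11 of 613 (1.79%) were in the H3K4me1 list, against 0.761% of all regions. The difference from genes of like width amounts to fewer than 2 genes of 42, and the single gene with a TSS in this list was *Acsl6*. *Acaca* and *Esrrg* had regions in both lists, which is 4.76% of members and 2.86% of coding genes. In all, 19 members had a region in either list (45.2%, against 32.9% of coding genes) and 23 had none. These combined shares were not set beside genes of like width, which were called more often than all coding genes in each list.

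**Figure D2:**
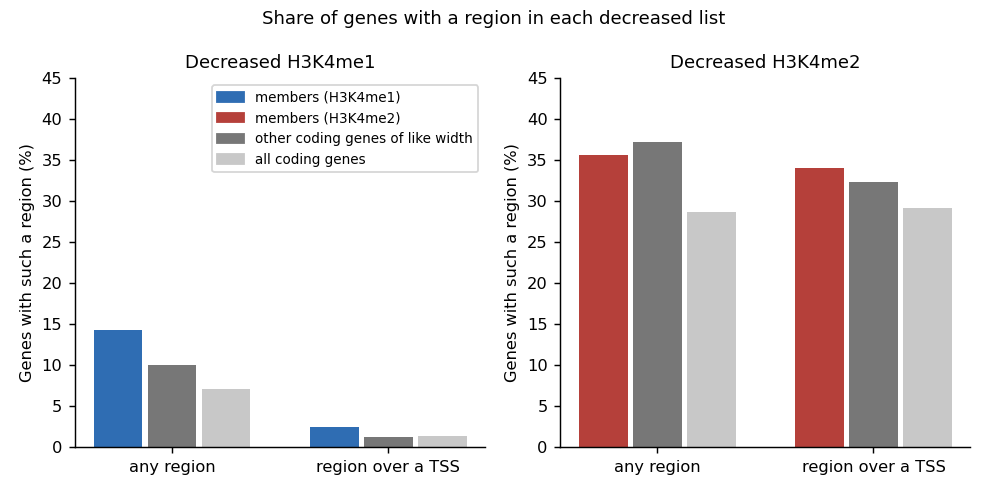
Percent of genes with a region in the decreased H3K4me1 (left) or H3K4me2 (right) list, counted over any region of the gene or over the region that holds a TSS; coloured bars are members, dark grey bars other coding genes of like width and light grey bars all coding genes. For H3K4me2 the bars of each triplet are close, at 35.7, 37.2 and 28.7% for any region and 34.1, 32.4 and 29.2% for the TSS.

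The lists differed in where they met these genes. Of the 14 decreased H3K4me2 regions, 13 held a TSS of a member (92.9%), as did 1 of the 11 decreased H3K4me1 regions (9.09%). Over all coding genes, a TSS lay in 4003 of 5232 decreased H3K4me2 regions (76.5%) and in 209 of 1820 decreased H3K4me1 regions. Of the 547 member regions with no coding TSS inside, 1 was in the H3K4me2 list (0.183%, against 0.695% for coding genes) and 9 were in the H3K4me1 list (1.65%, against 0.910%). CpG content followed the same line. The ratio of observed to expected CpGs, which is 1 where CpGs are as common as the C and G content allows, had a median of 0.50 in the members' decreased H3K4me2 regions (range 0.35 to 0.74) and of 0.21 in their decreased H3K4me1 regions (range 0.13 to 0.54). Over the whole lists the medians were 0.42 and 0.20.

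Uptake and binding had no H3K4me2 call, where 28.7% of coding genes with a region had one, or 29.2% by TSS. With 6 genes, this count is not a result about the group. For 5 of its 6 members a TSS lay in a region, and none of these regions was in either list. These were *Cd36* (4080 bp), the fatty acid translocase, the transporters *Slc27a1* (2640 bp) and *Slc27a4* (3060 bp), and the binding proteins *Fabp3* (6360 bp) and *Fabp5* (3580 bp). *Fabp3*, the heart-type binding protein, shares its TSS region with the annotated gene *Gm10570*. It had a decreased H3K4me1 region at chr4:129992206-129996905, 4700 bp wide and 6367 bp downstream of its TSS. That region covers the last part of *Fabp3* and also holds a TSS of *Zcchc17*, so that its assignment to *Fabp3* rests on position alone. *Fabp4* had 4 regions summing to 3900 bp, none of them in a list.

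The 3 lipases release fatty acids from stored or circulating triglyceride. *Lipe* was the one of them in the H3K4me2 list, against 29.2% of coding genes by TSS. *Lipe* encodes hormone-sensitive lipase, and a long form of it made in the testis starts from an upstream exon. The TSS of the transcript with the longest coding sequence lay in no region. The decreased region, chr7:26179006-26181785, was 2780 bp wide and lay 1944 to 4723 bp downstream of it, over another annotated TSS of *Lipe*. *Lpl*, which encodes lipoprotein lipase (6060 bp), and *Pnpla2*, the adipose triglyceride lipase (4360 bp), were in neither list.

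Activation to acyl-CoA had 3 of 5 long-chain acyl-CoA synthetases with a TSS in a decreased H3K4me2 region, against 29.2% of coding genes. For *Acsl1*, the main synthetase of the heart, the region was chr8:47555406-47558845, with 3440 bp from 989 bp upstream to 2450 bp downstream of the TSS. *Acsl1* has another TSS region, of 4440 bp, which was in neither list. For *Acsl3* it was chr1:78653066-78658325, 5260 bp wide and shared with a TSS of *Utp14b*. For *Acsl4*, which prefers arachidonic acid, it was chrX:138823346-138825745, of 2400 bp. *Acsl6* differed in mark and place. Its decreased region, chr11:54124426-54128785, was called for H3K4me1, was 4360 bp wide, and lay 6722 to 11081 bp downstream of the TSS of the transcript with the longest coding sequence, where an internal TSS is annotated. The region over that first TSS, of 1340 bp, was in neither list, and neither was the 2640 bp region of *Acsl5*.

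In the carnitine shuttle and malonyl-CoA group, 3 of 7 members had a TSS in a decreased H3K4me2 region, against 29.2% of coding genes. The isoform pairs were split. *Cpt1a* encodes the liver isoform of carnitine palmitoyltransferase, the entry step of the shuttle, and is also used by the fetal heart. Its decreased region was chr19:3321346-3327165, with 5820 bp from 1955 bp upstream to 3864 bp downstream of the TSS printed above. *Cpt1b*, the muscle isoform, had a region of 9020 bp that was in neither list and that also holds TSS of *Chkb* and *C730034F03Rik*. The 2 other parts of the shuttle, *Cpt2* (3440 bp) and the translocase gene *Slc25a20* (2220 bp), were in neither list.

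Malonyl-CoA blocks CPT1. *Mlycd*, whose product breaks it down, had a decreased H3K4me2 region of 2300 bp at chr8:121918206-121920505. *Acaca*, which makes malonyl-CoA for lipid synthesis, has several promoters. Its decreased H3K4me2 region, chr11:83991746-83995305, was 3560 bp wide and held an upstream TSS, at positions -13827 to -10268 from the TSS of the transcript with the longest coding sequence, which itself lay in no region. Another of its TSS regions also holds a TSS of *Tada2a*. Near its other end *Acaca* had 2 decreased H3K4me1 regions, of 4040 bp at chr11:84201366-84205405, overlapping an exon, and of 2140 bp at chr11:84206466-84208605, in an intron. *Acacb*, whose product sits at the mitochondrial membrane, had 18 regions and none in a list. Of all regions, 0.761% were in the H3K4me1 list and 1.87% in the H3K4me2 list.

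In beta-oxidation, 4 of 8 members had a TSS in a decreased H3K4me2 region and 0 had a decreased H3K4me1 region, against 29.2% and 7.08% of coding genes. These 4 calls rest on 3 regions, because *Hadha* and *Hadhb*, the subunits of the mitochondrial trifunctional protein, start 86 bp apart on opposite strands within the same region, chr5:30477926-30486505. It was 8580 bp wide and reached 4803 bp to the *Hadhb* side and 3776 bp to the *Hadha* side of the *Hadha* TSS. *Acadm*, the medium-chain acyl-CoA dehydrogenase, had a region of 5360 bp at chr3:153603506-153608865. *Acaa2*, the thiolase of the last step, had one of 8680 bp at chr18:74936206-74944885. The dehydrogenases for other chain lengths were not called at a TSS, namely *Acads* (2300 bp), *Acadl* (3560 bp) and *Acadvl* (1840 bp), and nor was *Hadh* (3940 bp), the short-chain hydroxyacyl-CoA dehydrogenase. Region widths were 5360 bp and above in the 4 called members and 3940 bp and below in the other 4, with the *Hadha* and *Hadhb* region counted for both genes. This split did not hold across the set. *Mlycd* (2300 bp) and *Acsl4* (2400 bp) were called for H3K4me2 at a TSS, and *Ucp3* (17260 bp) and *Esrrg* (15360 bp) were not. Coding genes outside the set were grouped by their widest TSS region. A TSS lay in a decreased H3K4me2 region for 41.4% of those with 5000 bp or more. The share was 31.9% with 3000 to 5000 bp and 16.0% with less.

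Electron transfer and uncoupling had 3 of 5 members with a TSS in a decreased H3K4me2 region, where 29.2% of coding genes had one. *Etfa* and *Etfb* encode the subunits of the electron transfer flavoprotein, which takes electrons from the acyl-CoA dehydrogenases, and *Etfdh* the enzyme that hands them to ubiquinone. The region of *Etfa*, chr9:55355846-55361285, was 5440 bp wide and decreased, and that of *Etfb*, of 5760 bp, was in neither list. The region of *Etfdh*, chr3:79430986-79434605, was 3620 bp wide and decreased, and also holds a TSS of *4930579G24Rik*. *Ucp2*, a widely expressed mitochondrial carrier, had a decreased region of 7080 bp at chr7:107640466-107647545. Its neighbour *Ucp3*, the form known from skeletal muscle, had a region of 17260 bp, of which 16194 bp lay upstream of the TSS, and it was in neither list.

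**Figure D3:**
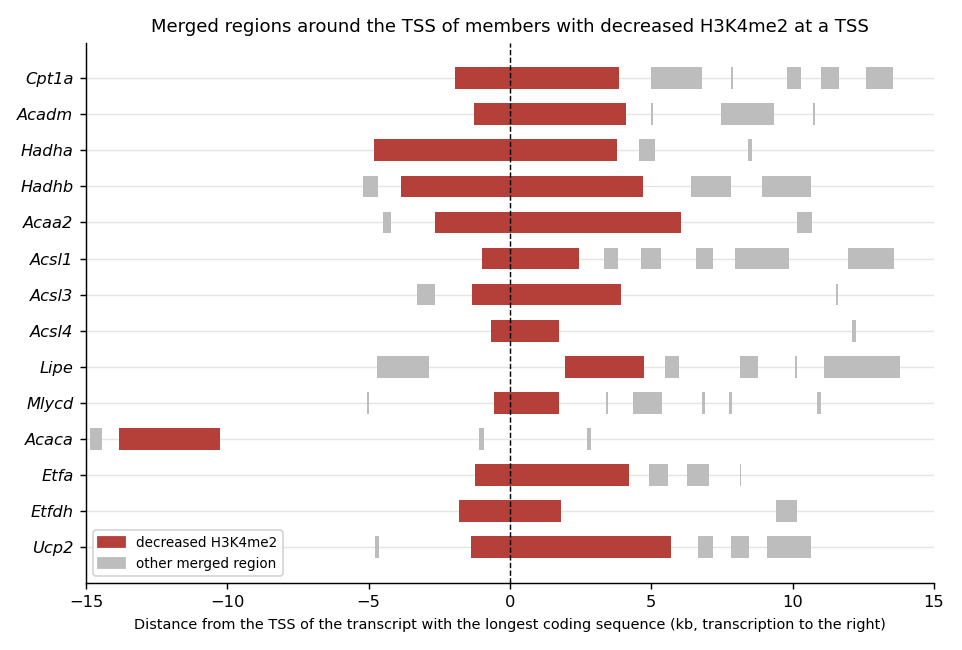
Merged regions within 15 kb of the TSS of the transcript with the longest coding sequence, drawn to scale in kb with transcription to the right, for the 14 members with a TSS in a decreased H3K4me2 region. In 12 of them the red decreased region spans the dashed line at 0, whereas in *Lipe* and *Acaca* it lies over another TSS, and every grey region drawn is in neither list.

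The 8 regulators were also counted apart from the other members. All 8 had a TSS in a region, and 0 of 8 had it in a decreased H3K4me2 region, against 14 of 33 of the other members (42.4%). Among genes of like TSS region width the share was 32.9% for the regulators and 32.3% for the others, and 32.9% of 8 genes would be 2 or 3 genes. With 8 genes, the count of 0 is not a result about the group. Uptake and binding had no such call either. Some genes of nuclear receptor control outside the set, such as *Rxrb* and *Ncor1*, had one. The widths were 2460 bp at *Ppara*, 1840 bp at *Pparg*, 4220 bp at *Ppard*, 6240 bp at *Ppargc1a*, 8900 bp at *Ppargc1b*, 5020 bp at *Esrra*, 3740 bp at *Esrrb* and 15360 bp at *Esrrg*. *Ppara* is the PPAR of oxidative tissues, *Pparg* that of fat, and *Ppard* is widely expressed. For *Pparg* the region lay over the other of its 2 annotated TSS, not that of the transcript with the longest coding sequence.

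H3K4me1 showed the reverse order. A decreased region was found at 3 of 8 regulators (37.5%) and 3 of 34 other members (8.82%), against 24.6% and 6.57% of genes of like summed region width. The regulators were long genes, with a median length of 107886 bp against 23810 bp and a median summed region width of 37300 bp against 9740 bp. The genes of like summed width thus had the same order.

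*Ppargc1b*, the gene of the PGC-1beta coactivator, had the widest decreased region of the set. It was 12140 bp of intron at chr18:61514786-61526925, 33129 to 45268 bp downstream of the TSS, and in the H3K4me1 list. *Ppargc1a*, its relative, had 24 regions summing to 48780 bp and none in a list. Of all regions, 0.761% were in the H3K4me1 list and 1.87% in the H3K4me2 list. By covered base pairs these shares were 2.49% and 9.09%, as wider regions were called more often. The lack of a call at 1 gene is not a result about it.

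*Esrrg*, the estrogen-related receptor with a high level in heart, had 169 regions. Of these, 4 were in the H3K4me1 list and 1 in the H3K4me2 list, against 0.761% and 1.87% of all regions. Its decreased regions all lay in introns. The H3K4me1 regions were chr1:189533246-189533945 (700 bp), chr1:189700526-189703345 (2820 bp), chr1:189991946-189992565 (620 bp) and chr1:190008586-190009625 (1040 bp). The H3K4me2 region, of 2120 bp at chr1:189977266-189979385, was the single one of the 14 that held no TSS.

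*Esrrb*, the receptor known from pluripotent cells, had 37 regions. Against 0.761% of all regions, 2 of these were in the H3K4me1 list, both in introns. One, chr12:87719746-87722065, was 2320 bp wide. The other was 80 bp wide, the narrowest decreased region of the set. It is shown whole, with its single CpG in capitals, because it contrasts with the CpG-rich promoters above.
Esrrb intronic region, chr12:87779846-87779925, plus strand: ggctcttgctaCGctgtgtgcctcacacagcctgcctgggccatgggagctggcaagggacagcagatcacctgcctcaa

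**Figure D4:**
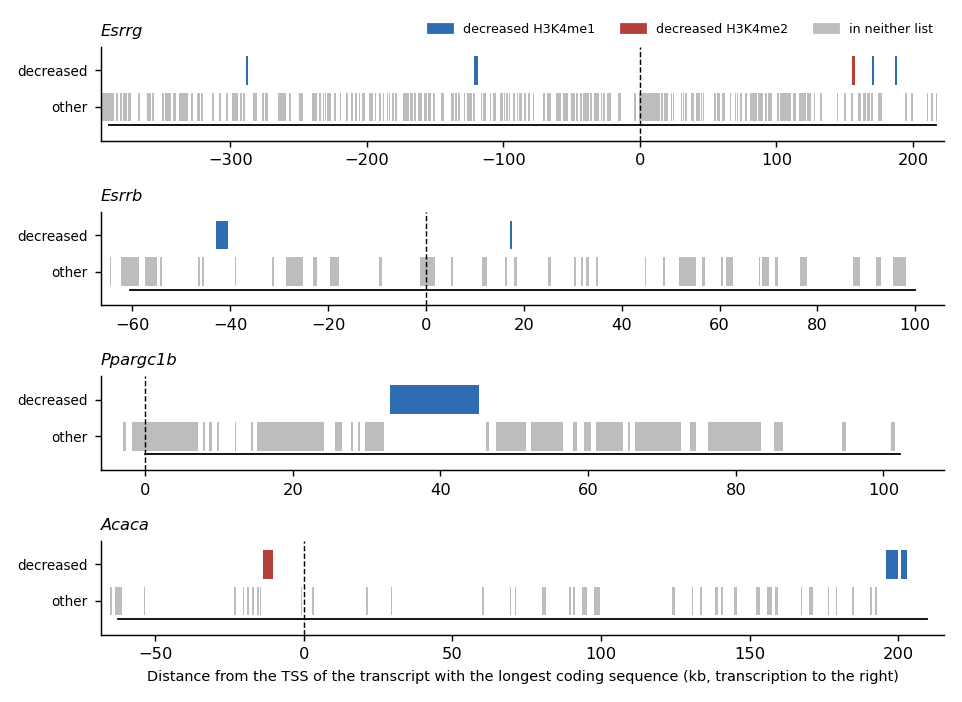
Merged regions of *Esrrg*, *Esrrb*, *Ppargc1b* and *Acaca* by distance in kb from the TSS of the transcript with the longest coding sequence (dashed line, transcription to the right), with regions of either decreased list above and all others below; the black line is the gene, and regions too narrow to see are drawn at a minimum width. The decreased H3K4me1 regions (blue) lie away from the dashed line in all 4 genes, and the 12140 bp region of *Ppargc1b* is the widest.

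Within the H3K4me2 calls, promoters were compared by CpG content in the 300-base window around the TSS of the transcript with the longest coding sequence. A window was taken as CpG-rich with a ratio of observed to expected CpGs of 0.6 or more and a GC content of 50% or more. Of the 12 members with this TSS in a decreased H3K4me2 region, 11 were CpG-rich (91.7%), with a median ratio of 0.78. The exception was *Acadm*, with a ratio of 0.46. Of the 26 members with this TSS in another region, 12 were CpG-rich (46.2%), with a median ratio of 0.59. All coding genes had the same order with a smaller gap, at 78.0% (median 0.83) and 57.6% (median 0.69). The highest ratio was 0.92, at *Hadha*. The ratio was 0.76 at *Cpt1a* and 0.20 at *Cpt1b*, and 0.66 at *Ucp2* and 0.22 at *Ucp3*. In these pairs the called gene had the CpG-rich promoter. Another pair did not show this, as called *Etfa* (0.77) and uncalled *Etfb* (0.72) were both CpG-rich. *Acaca* was called at another TSS than that of its window. Its window ratio of 0.08 therefore cannot be compared with the 0.23 of uncalled *Acacb*. Over the whole decreased H3K4me2 region of *Acaca*, which is not a 300-base window, the ratio was 0.63. The lowest ratio over a region was 0.17, at *Ppargc1a*, which was not called. CpG content alone did not separate the sets, since *Acadl* (0.89), *Ppargc1b* (0.85) and *Acsl6* (0.84) were CpG-rich and their TSS regions were not in the H3K4me2 list.

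The 4 members with this TSS in no region, *Fabp4*, *Lipe*, *Acaca* and *Pparg*, had ratios of 0 to 0.17. The median of coding genes without a region there was also 0.17.

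**Figure D5:**
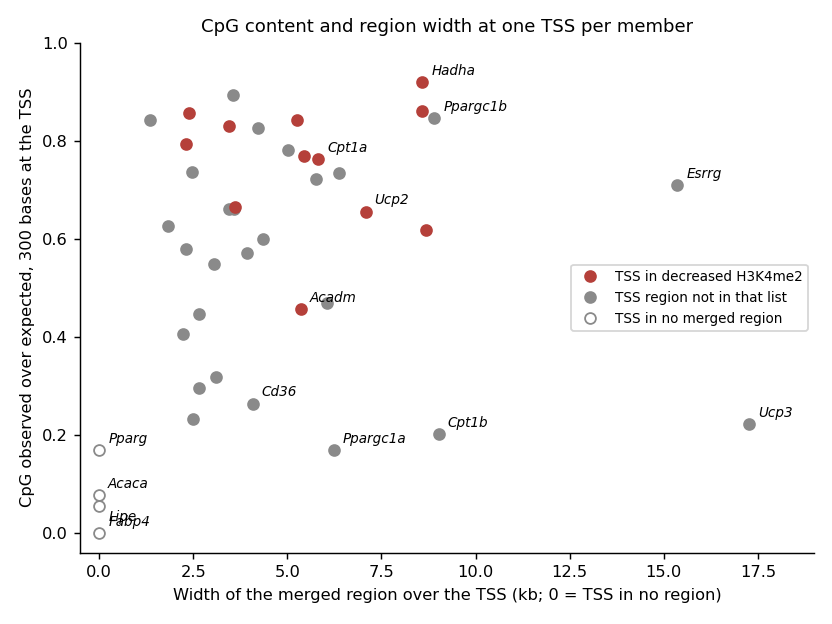
Ratio of observed to expected CpGs in the 300 bases at 1 TSS per member against the width in kb of the merged region over that TSS, with open circles at 0 for the 4 members without one. The 12 red points, with the TSS in decreased H3K4me2, lie at ratios of 0.46 to 0.92, whereas grey points span 0.17 to 0.89.

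The same windows were searched on both strands for the element of estrogen-related receptors, TCAAGGTCA, and for a PPAR element, taken as 2 copies of AGGTCA with 1 base between them. As spelled, either element was found in 0 of 42 members and in 0.344% of the 22362 coding promoters read. With 1 mismatch allowed, the first was found in *Hadha*, starting at position -148 from the TSS, and in *Acsl5*, at position -242. That is 4.76% of members and 6.67% of coding promoters. The PPAR element was found with 1 mismatch in 0 of 42 members and 0.505% of coding promoters. No match says only that these letters are not in this window.

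To place the set in its pathway, 57 further genes of fatty acid and lipid metabolism and of nuclear receptor control were counted in the same way. A TSS lay in a region for 54 of the 57, all but *Fabp1*, *Fabp2* and *Fabp6*, which encode binding proteins of liver and intestine. The median width was 3600 bp. A TSS lay in a decreased H3K4me2 region for 17 of the 54 (31.5%), near the 29.2% of all coding genes, and in a decreased H3K4me1 region for 2 (3.70%, against 1.29% of coding genes), among them *Dgat1*. Any region was in the H3K4me2 list for 18 (31.6%, against 28.7% of coding genes) and in the H3K4me1 list for 9 (15.8%, against 7.08%).

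Among the 17 were further enzymes of beta-oxidation and acyl-CoA handling, *Acad11*, *Ech1*, *Echs1*, *Eci1*, *Decr1*, *Acot13*, *Crat* and *Cpt1c*, and *G0s2*, whose product inhibits the lipase encoded by *Pnpla2*. Others act in the nucleus or on mitochondrial biogenesis. They included *Rxrb*, a retinoid X receptor that pairs with PPARs, the coactivator subunit gene *Med1*, the corepressor genes *Ncor1* and *Nrip1*, the PGC-1 related coactivator gene *Pprc1*, *Nrf1*, and *Tfam*, the factor that maintains mitochondrial DNA. The TSS region of *Nrip1* was 14680 bp wide and that of *Pprc1* 12320 bp.

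Beyond the 5 kb limit, 49 regions lay between 5 and 10 kb from a TSS of 32 members. Some of these already counted for another member, as at *Hadha*, *Hadhb* and *Ucp2*. Of the 49, 1 was in a list, where 1.87% of all regions were in the H3K4me2 list and 0.761% in the H3K4me1 list. It was a 10040 bp region near *Acadvl*, chr11:69807606-69817645, in the H3K4me2 list.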

How the data were processed

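Hearts of each genotype were pooled per the labels, and H3K4me1, H3K4me2 and H3K4me3 ChIP-Seq and input libraries were made from 3 pools each. The authors called peaks, merged them over replicates and marks, and deposited 1 merged list and 2 decreased lists, each with chromosome, start and end and no measured value. The submitters' processing notes name the build mm9 and, among the tools, Bowtie, Bowtie2, SAMtools, FastQC and CASAVA 1.8.2. The study states a false discovery rate threshold for the decreased lists. The peak caller and the test behind them are not given in the sources used here, and library depth is unknown.

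Groups came from sample titles. The last region on each of the 21 chromosomes ended within its length in NCBIM37. All 2730 and 6699 decreased regions were identical to a merged region, and lists were joined on exact coordinates. Regions were assigned to GENCODE vM1 coding genes by an overlap of at least 1 bp with the body or with 5 kb either side of any annotated TSS. Coordinates are 1-based. For comparison by width, coding genes were put into 10 classes of equal size by summed region width or by widest TSS region. The share called among the other genes of each member's class was averaged over the members. This is a description and not a test. Promoter windows were read from NCBIM37 and no sequence from chromosome 18 is shown. Counting was tested on simulated regions with Python 3.11.15, numpy 2.4.6 and scipy 1.17.1, and plots were made with matplotlib 3.10.9.

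The members, their role groups, the further pathway genes and the marker genes were chosen with earlier results of these data known. Named with values were members in a decreased list, those with the 3 widest TSS regions, those without a TSS region, those sharing a TSS region with another coding gene, the lowest and highest of each measure, and others needed to give a role group's range. *Acadl*, *Nrip1* and *Pprc1* were named with widths or ratios after their values were seen. Some items are counted but not reported by name or sequence here.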

Additional observations from a re-analysis of the deposited data

How the results depend on the processing

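Of 43 alternatives over 13 results, 37 kept the value within its limits, which were 1.5 times for a count and the 95% binomial interval for a share. With TSS windows and no gene body, members with a decreased H3K4me1 region went from 6 to 1, which leaves *Acsl6*. With a single TSS per gene, members with a TSS in decreased H3K4me1 went from 1 to 0. By covered base pairs instead of regions, the members' share in the H3K4me1 list was 4.46% (all regions 2.49%) and in the H3K4me2 list 8.47% (all regions 9.09%), so that the latter went from above to below its background. With regions of at least 500 bp the H3K4me2 share was 4.22% (all regions 3.60%) and the H3K4me1 share 3.01% (all regions 1.33%). By widest region instead of summed width, genes of like width had a decreased H3K4me1 region in 8.94%. No paired analysis was possible because the deposited lists hold no values per pool, although titles share replicate numbers. For the same reason no replicate could be left out, and without scores no stricter threshold could be set.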
